A study of Mus musculus with 96 samples.

Results

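Small RNA of the cortex was compared between Q20 mice and their wild-type (WT) littermates at 10 months of age. Q20 mice were heterozygous for an engineered *Htt* in which the human *HTT* exon with 20 CAG repeats was knocked in, whereas their littermates carried only endogenous *Htt*. The samples were taken by their labels for genotype, line and age, which gave 16 of the 96 libraries of the series, 8 per genotype with 4 females and 4 males each. All animals were labelled C57BL/6, and the labels describe cages that held both genotypes. The labels name no treatment, and the altered allele is expressed from the endogenous locus. The other libraries came from mice with 20, 50, 92 or 140 CAG repeats, and from WT mice of the Q20 and Q50 lines, at 6 or 10 months. Each library came from an animal of its own, and the methods of the study allowed no more than 1 animal per sex and genotype from a litter. They also preferred litters that could give several animals. Animals of different sex or genotype could thus share a litter, and litter was not a term of the fit. A single knock-in line was sampled, so the repeat cannot be told apart from anything else that this line carries at the altered allele. The study counted Q20 mice among its controls, so the comparison asks whether cortical microRNA levels differed between these control genotypes.

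*Htt* encodes huntingtin, and long expansions of its CAG repeat cause Huntington's disease, while a repeat as short as that of the Q20 line is in the range of unaffected people. MicroRNAs are short RNAs that are cut from a hairpin precursor, the stem-loop, and that lower the stability and translation of messenger RNAs to which they pair. In the cortex they take part in the development of neurons and in the control of synaptic genes. The tables of the study count reads per stem-loop, and a count does not show which arm of the hairpin the reads came from. The files identify stem-loops only by miRBase accession and do not pair these with microRNA names, so neither a name, a role nor a genome position is given for them. For the same reason the labelled tissue could not be checked against its defining microRNAs. Only 4 stem-loops are therefore given by accession, 2 that rose and 2 that fell.

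The estimated counts per library summed to between 5316540 and 7157010 in Q20 mice and between 5614560 and 12142200 in WT mice. No library of the 16 fell below the connectivity limit of -5 that the study used to remove aberrant samples, and the lowest value was -4.46. Each sample description holds a field written L1, L2 or L3, whose meaning the labels do not give. Of the Q20 libraries 7 were L2 and 1 was L3, and of the WT libraries 5 were L2 and 3 were L3, so this field was a term of the fit together with sex. Of 1187 stem-loops, 231 had no count in the 16 libraries. The 418 stem-loops with enough counts to be tested held 99.96% of the counts.

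At 10 months, 31 of 418 stem-loops tested (7.42%) differed between Q20 and WT cortex at an FDR of 0.05 (edgeR quasi-likelihood test with Benjamini-Hochberg adjustment). Of these, 21 (5.02%) were higher and 10 (2.39%) were lower in Q20. The rises spanned 0.21 to 2.24 on the log2 scale with a median of 0.42. The falls were smaller, from -0.18 to -0.38, with a median of -0.23. The median change over all stem-loops tested was -0.0011, and an unadjusted p under 0.05 was reached by 107 stem-loops (25.6%). In tissue samples of this kind, fewer cells of a type and less RNA per cell cannot be told apart.

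The 31 stem-loops were 7.42% of those tested, and together they held 7.20% of the counts in Q20 and 7.78% in WT libraries. Only 4 of them changed by 2-fold or more, all upward. The direction of the called stem-loops went with their level, measured in CPM. This is the count scaled to a common library size by the TMM factors of edgeR over all 96 libraries. Among the 94 stem-loops with a mean of at least 1000 CPM, 1 rose and 6 fell, and the median change of all 94 was -0.06. Of the 6 falls, MI0016971 had a mean of 1000.5 CPM and so barely entered this class. The called stem-loop with the highest level, at a mean of 42196 CPM, was another of these falls. Its log2 change was -0.19 ± 0.05 (SE, adjusted p = 0.0320 from edgeR). Among the 216 with 10 to 1000 CPM, 19 rose and 4 fell, and the median change of all 216 was 0.03. Of the 108 below 10 CPM a single stem-loop was called, and it rose. The classes were chosen after values were seen. The number of falls depended on the libraries and the filter, with 0 without WT male M4 and 4 with no filter on low counts. The levels are not corrected for the length of the hairpin. The median length was 85 nucleotides for those that rose, 74.5 for those that fell and 83 for all that were tested.

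**Figure D1:**
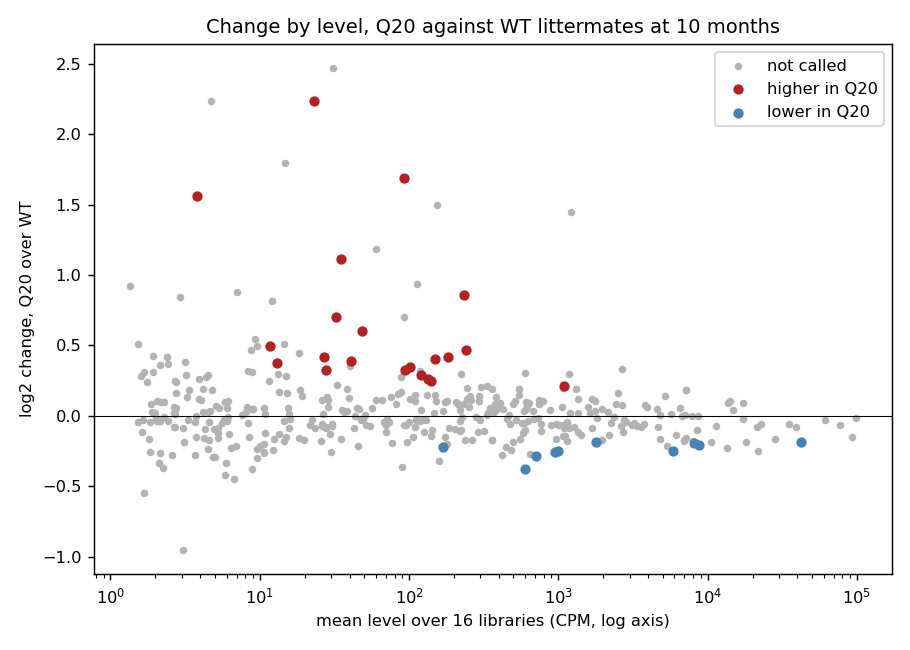
Log2 change of Q20 over WT at 10 months (vertical axis) against the mean level over 16 libraries in CPM (horizontal log axis), 1 point for each of the 418 stem-loops tested. The 21 called rises in red lie mostly between 10 and 1000 CPM, and 6 of the 10 called falls in blue lie at or above 1000 CPM.

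The strongest evidence of a rise was found for MI0005495, a stem-loop of 80 nucleotides. Its level in the Q20 libraries was 226, 239, 263 and 264 CPM in the females and 318, 298, 336 and 296 CPM in the males. In the WT libraries it was 193, 210, 210 and 220 CPM in the females and 193, 201, 217 and 168 CPM in the males. Every Q20 library lay above every WT library. The mean was 279.9 ± 38.4 CPM (SD, n = 8) in Q20 and 201.8 ± 16.9 CPM (SD, n = 8) in WT. The log2 change was 0.47 ± 0.07 (SE), with an adjusted p of 0.00250 from edgeR. An exact permutation test of the log2 levels over all 12870 assignments of the libraries gave p = 0.000155 (two-sided), the smallest value that these group sizes allow.

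MI0000229, a stem-loop of 61 nucleotides, showed a larger and much more variable rise. Its level in the Q20 males was 183, 238, 248 and 197 CPM, and in the Q20 females it was 40.5, 86.8, 126 and 43.0 CPM. The WT libraries were uniformly low, at 50.2, 32.8, 40.0 and 36.6 CPM in females and 40.7, 34.8, 46.9 and 36.9 CPM in males. The groups overlapped through females F1 and F4 of the Q20 group, which lay within the WT range, while the other 6 Q20 libraries lay above it. The mean was 145.3 ± 83.3 CPM (SD, n = 8) in Q20 and 39.9 ± 6.01 CPM (SD, n = 8) in WT. The log2 change was 1.69 ± 0.32 (SE), with an adjusted p of 0.0113 from edgeR. The exact permutation test gave p = 0.00218 (two-sided) and an adjusted p of 0.0293.

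The other 3 stem-loops that rose by 2-fold or more divided the Q20 libraries in a similar way. Their means over the 16 libraries were 23.2, 3.78 and 35.2 CPM, in the order of their rise. The largest rise of all called stem-loops had a log2 change of 2.24 ± 0.44 (SE). That stem-loop stood at 7.12, 13.3, 23.8 and 26.1 CPM in Q20 females, at 70.3, 72.6, 45.8 and 56.2 CPM in Q20 males, and between 4.83 and 11.2 CPM in WT mice. Only Q20 female F1 lay within its WT range. A second stem-loop, with a log2 change of 1.56 ± 0.33 (SE), ranged from 1.33 to 12.3 CPM in Q20 and from 1.17 to 2.70 CPM in WT. The third, with a log2 change of 1.12 ± 0.28 (SE), ranged from 16.7 to 83.5 CPM in Q20 and from 16.4 to 27.3 CPM in WT. For both, all 4 Q20 males and females F3 and F4 lay above the WT range and female F1 lay within it, as did female F2 for the second stem-loop.

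Stem-loops that fell did so by smaller amounts. MI0016971, of 66 nucleotides, had a mean of 928 ± 69.8 CPM (SD, n = 8) in Q20 and 1073 ± 32.8 CPM (SD, n = 8) in WT. Its range was 837 to 1029 CPM in Q20 and 1045 to 1126 CPM in WT, so the groups did not overlap. The log2 change was -0.25 ± 0.05 (SE), with an adjusted p of 0.0113 from edgeR. For MI0016971 the exact permutation test gave p = 0.000155 and an adjusted p of 0.00812. MI0006127, of 81 nucleotides, had a mean of 648 ± 49.2 CPM (SD, n = 8) in Q20 and 769 ± 52.4 CPM (SD, n = 8) in WT. Its range was 580 to 705 CPM in Q20 and 681 to 842 CPM in WT, and the ranges overlapped. The log2 change was -0.28 ± 0.06 (SE), with an adjusted p of 0.0113 from edgeR. For MI0006127 the exact permutation test gave p = 0.000777 and an adjusted p of 0.0217.

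**Figure D2:**
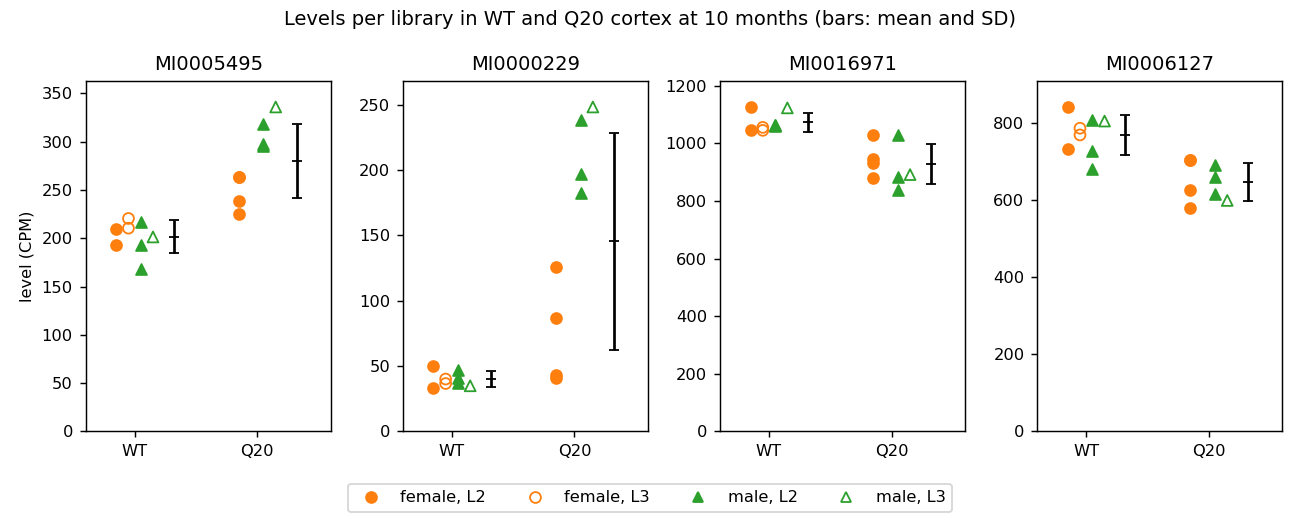
Level in CPM (vertical axes, from 0) of the 4 stem-loops given by accession in each WT and Q20 library at 10 months, with circles for females, triangles for males, open symbols for L3 and bars for the mean and SD of 8 libraries. MI0005495 and MI0016971 separate the groups, whereas MI0000229 spans 40.5 to 248 CPM in Q20 and 32.8 to 50.2 CPM in WT.

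The same exact permutation test, run without covariates on all 418 stem-loops, gave 46 calls at an FDR of 0.05, 36 higher and 10 lower, and 28 of the 31 stem-loops were among them. Complete separation of the 8 Q20 from the 8 WT libraries was seen for 8 of 418 stem-loops (1.91%), and 7 of these 8 were among the 31. Over all 418, 6 (1.44%) lay wholly higher and 2 (0.478%) wholly lower in Q20, and of the 7 called, 5 were higher and 2 were lower. Deposited counts were fractional in most libraries for 10 of the 31 and for 119 of the 418 tested. How such reads were divided between loci is not stated, so levels of stem-loops with close copies elsewhere are uncertain. MI0005495 and MI0016971 are among the 10.

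The 31 stem-loops did not change evenly over the Q20 animals. As a description of the values that chose them, the median log2 level of the 21 that rose, relative to the WT mean, was 0.51 to 0.71 in the 4 Q20 males. In the 4 Q20 females it was 0.16 to 0.39, and in the WT libraries it was -0.12 to 0.09. Q20 female F1 had the lowest value of the Q20 group. The 10 that fell had medians of -0.34 to -0.05 in Q20 libraries and of -0.07 to 0.06 in WT libraries.

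**Figure D3:**
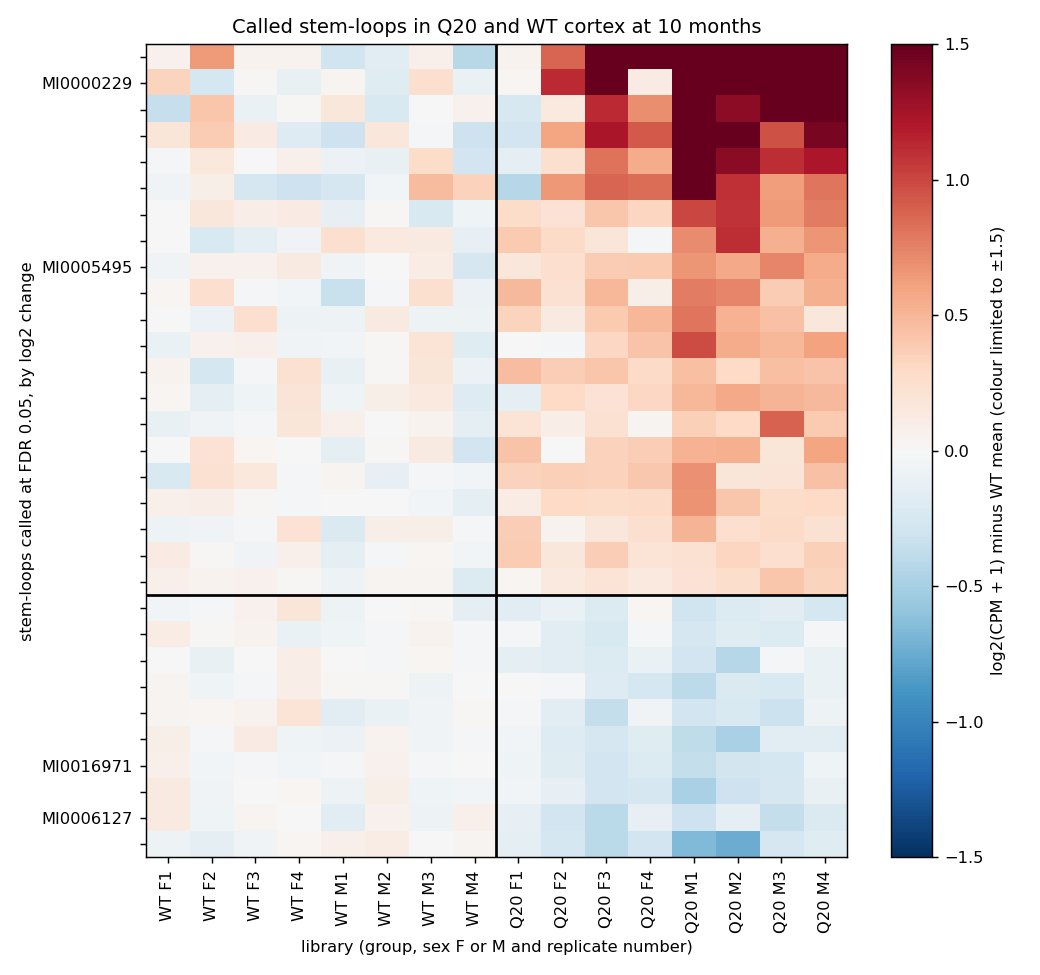
Log2(CPM + 1) minus the WT mean, shown as colour limited to 1.5 in either direction, for the 31 called stem-loops (rows, by log2 change) in 8 WT and 8 Q20 libraries (columns, with sex and replicate number). The rises are deepest in the 4 Q20 males, and Q20 female F1 is the palest Q20 column.

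The difference between the sexes was tested as an interaction. The change differed between males and females for 2 of 418 stem-loops (0.478%), both with a larger rise in males, and 54 reached an unadjusted p under 0.05. One was the stem-loop with the largest rise, whose log2 change was larger in males by 2.36 ± 0.47 (SE, adjusted p = 0.0464 from edgeR). The other had a log2 change of 0.60 over both sexes, larger in males by 0.78 ± 0.14 (SE, adjusted p = 0.0317 from edgeR). For MI0000229 the difference between sexes was 1.55 ± 0.47 (SE), with an adjusted p of 0.216. Of the 31 stem-loops, 12 had an unadjusted p under 0.05 for this interaction. In males alone 24 stem-loops were called, 16 of them among the 31. In females alone none was called by edgeR, although all 31 kept their sign, 8 of the 31 had an unadjusted p under 0.05, and 19 of all stem-loops did. The median change of the 21 that rose was 0.62 in males and 0.29 in females. These males and females are the libraries that chose the 31, so signs and counts among the 31 are no separate test. Leaving out 1 library gave 0 to 5 interaction calls, the highest without Q20 female F3. There was no call without Q20 female F2, without any 1 of the WT females F1 to F4, or without WT males M1 or M3, and 1 call without any 1 of Q20 F4, M1, M3 and M4 and WT M2 and M4. The single call without Q20 male M1 was neither of the original 2. Without Q20 male M2 there were 4.

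At 6 months the same contrast was made in other animals of the line, with 8 Q20 and 7 WT libraries, since 1 WT library fell below the connectivity limit. It gave no call among 421 stem-loops tested by edgeR or by DESeq2, with 22 (5.23%) and 16 at an unadjusted p under 0.05. All 31 stem-loops called at 10 months were tested, and only 6 had the same sign. The median change of the 21 that rose at 10 months was -0.12 at 6 months, and that of the 10 that fell was 0.06. MI0000229 had a log2 change of -0.27 ± 0.26 (SE) at 6 months and MI0005495 of -0.06 ± 0.08 (SE).

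The change between ages was tested as an interaction over the libraries of both ages, with the L field nested in age. It passed for 39 of 437 stem-loops (8.92%), of which 19 (4.35%) were higher and 20 (4.58%) lower at 10 months relative to 6 months. With DESeq2 size factors in edgeR the split was 19 and 12. Among the 31 stem-loops 22 passed, 14 of those that rose and 8 of those that fell. The 31, with those given by accession, were chosen by their change at 10 months, which is part of this interaction. A high share among them was thus built in by the choice. MI0000229 changed by 2.06 ± 0.44 (SE) more on the log2 scale at 10 than at 6 months (adjusted p = 0.00662 from edgeR). The difference was 0.51 ± 0.11 (SE) for MI0005495, -0.35 ± 0.08 (SE) for MI0016971 and -0.29 ± 0.08 (SE) for MI0006127. The ages were not sampled from the same animals, and age cannot be told apart from anything else that differed between the collections.

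**Figure D4:**
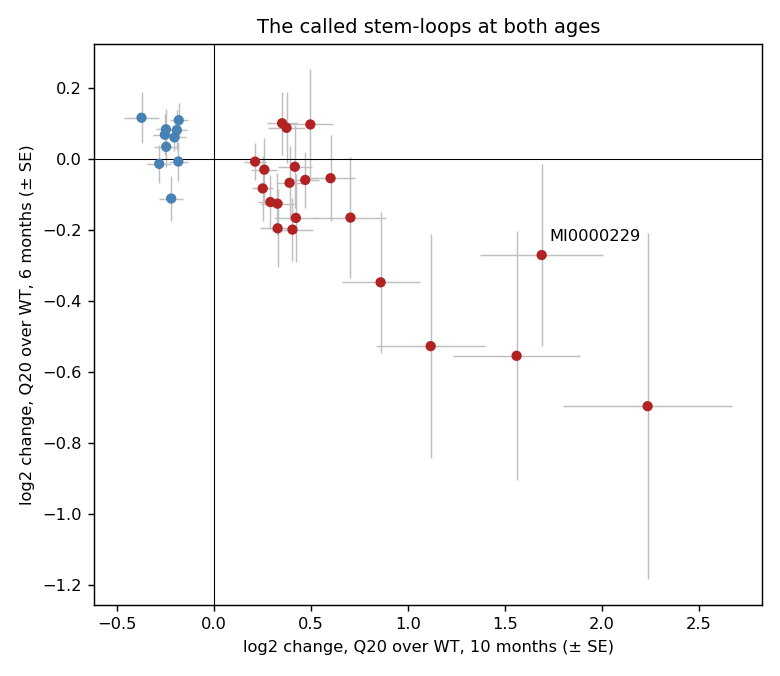
Log2 change of Q20 over WT at 6 months (vertical axis) against that at 10 months (horizontal axis) for the 31 stem-loops called at 10 months, with bars for 1 SE. Points of the 21 that rose (red) lie mostly below 0 at 6 months, with a median of -0.12, and those of the 10 that fell (blue) mostly above it, with a median of 0.06.

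The WT littermates at 10 months had the lowest median level of MI0000229 among the 12 groups of the series, by a margin of less than 1 CPM over the next. The medians here are over the libraries above the connectivity limit, 5 to 8 per group. In WT mice of the Q20 line the level was 138.6 to 197.7 CPM (median 174.2, n = 7) at 6 months and 32.8 to 50.2 CPM (median 38.5, n = 8) at 10 months, and these ranges did not overlap. In WT mice of the Q50 line at 10 months it was 45.9 to 242.5 CPM (median 115.9, n = 7), a range that overlapped the 40.5 to 248 CPM (median 154.4, n = 8) of Q20 mice. In order of the medians, WT mice of the Q20 line at 6 months were followed by Q20 mice at 6 months (161), Q20 mice at 10 months, Q50 mice at 10 months (136.5), and WT mice of the Q50 line at 10 and at 6 months (113.6 at 6 months). Next came Q140 mice at 10 months (80.7), Q50 mice at 6 months (78.2), Q140 mice at 6 months (45.7), Q92 mice at 6 months (42.7), Q92 mice at 10 months (38.6) and the 10-month WT littermates. Neighbours in this order overlapped in their ranges. With all 8 libraries per group the order changed, as the median of Q92 mice at 10 months was then 56.6 CPM and that of WT mice of the Q50 line at 10 months 151 CPM. MI0005495 was at a median of 279.7 CPM in Q20 mice at 10 months, and the other group medians lay between 168.6 and 246.3 CPM.

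**Figure D5:**
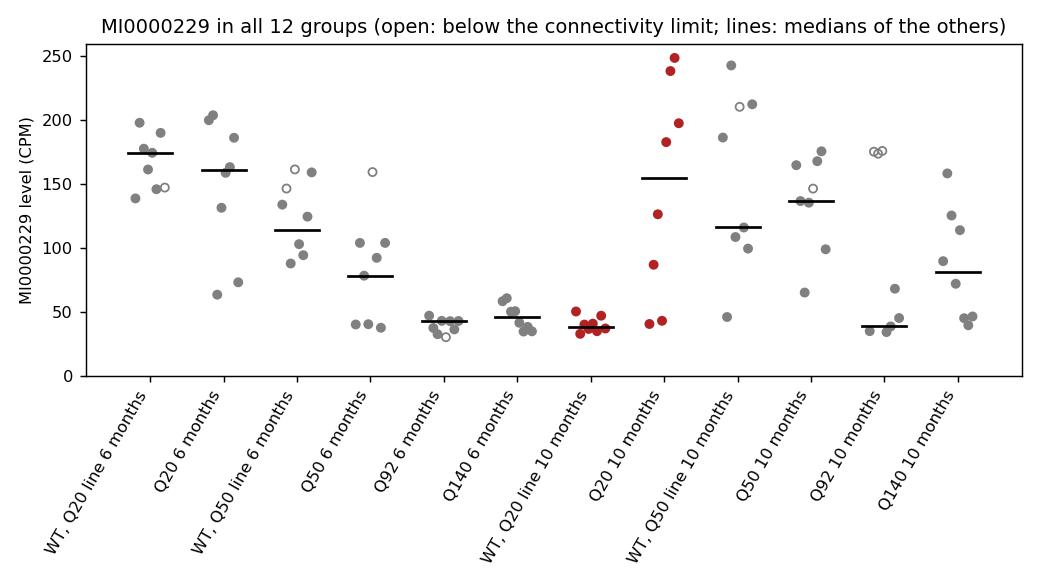
Level of MI0000229 in CPM (vertical axis, from 0) in all 96 libraries by group, with open symbols for libraries below the connectivity limit, lines for the medians of the others and the 2 groups compared at 10 months in red. WT mice of the Q20 line lie at 32.8 to 50.2 CPM at 10 months, against 138.6 to 197.7 CPM at 6 months.

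Setting the Q20 mice against WT mice of the Q50 line at 10 months (n = 7 after the connectivity limit), a control group chosen after the data were seen, gave 1 call among 420 stem-loops (0.238%), a fall that was not one of the 31, with 32 (7.62%) at an unadjusted p under 0.05. Of the 31, 26 had the same sign and 6 an unadjusted p under 0.05, and the median change was 0.17 for the 21 that rose and -0.06 for the 10 that fell. For MI0000229 the change was -0.08 ± 0.53 (SE). For the other 3 that rose by 2-fold or more it was 0.14 ± 0.83, -0.03 ± 0.82 and 0.39 ± 0.43 (SE), in the order of their rise. The WT mice of the Q50 line differed from those of the Q20 line in 2 of 416 stem-loops (0.481%), both higher, with 68 (16.3%) at an unadjusted p under 0.05. MI0000229 was one of them (adjusted p = 0.0288 from edgeR) with medians of 115.9 and 38.5 CPM over the 7 and 8 libraries tested. In that comparison 29 of the 31 had the sign they had in Q20, and 19 an unadjusted p under 0.05. These comparisons share the Q20 or the WT libraries with the main one, by which the 31 were chosen. Shared signs and small p-values among the 31 were thus partly built in by the choice. Line cannot be told apart from any difference in how the mice were kept or collected.

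The level of a set of 8 stem-loops that varied together over all 96 libraries was also compared. Its members were those with the largest loadings on the first principal component, with pairwise correlations of at least 0.93 over the libraries. Their summed level was 638 to 6281 CPM (median 1675) in Q20 and 455 to 1308 CPM (median 800) in WT. Of the Q20 libraries 4 lay within the WT range and 4 above it, and males M1 and M4 were the highest, at 6158 and 6281 CPM. All 8 were higher in Q20, with a median log2 change of 1.47. None was called, against 7.42% of all 418 stem-loops tested. An unadjusted p under 0.05 was reached by 5 of the 8, against 25.6% of all tested. The members were picked for varying together, so these are not 8 separate results. With the summed level of the set as a covariate 410 stem-loops were tested and 1 remained called, MI0005495. Its log2 change was 0.39 ± 0.07 (SE, adjusted p = 0.0369 from edgeR), and MI0000229 had 1.39 ± 0.35 (SE, adjusted p = 0.106 from edgeR).

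The number of calls depended on the libraries that entered the fit. Within the L2 libraries, 7 Q20 and 5 WT, no stem-loop was called by edgeR and the smallest adjusted p was 0.0547. There all 31 kept their sign with an unadjusted p under 0.05, as did 84 of all stem-loops, and the median change was 0.45 for those that rose and -0.24 for those that fell. Within L2 the exact permutation test over 792 assignments gave an unadjusted p under 0.05 for 28 of the 31 and for 78 of the 418 stem-loops, and no call at an FDR of 0.05. The L2 libraries are among those that chose the 31, so neither L2 result for the 31 is a separate test. The L3 libraries held a single Q20 mouse and gave no value of their own. Leaving out 1 library at a time gave between 10 and 56 calls. The count was 10 without WT male M4, 13 without WT male M1, 20 without Q20 female F3 and 56 without Q20 female F1, and 23 to 37 without any other library. Without WT male M4 there were 10 rises and 0 falls, without WT male M1 11 and 2, without Q20 female F3 18 and 2, without WT male M2 20 and 3, and without Q20 female F1 37 and 19. The falls numbered 4 without WT female F2, 5 without WT female F1 or male M3, 6 without Q20 males M2 or M4, and 7 to 11 without any other library. In males alone there were 21 rises and 3 falls.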

How the data were processed

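Total RNA of flash-frozen cortex was enriched for small RNA and sequenced with short strand-specific single-end reads. According to the methods of the study, clipped reads were aligned to mm10 with STAR and counted with HTSeq. The processing notes of the submitters name CASAVA 1.8.2, while the sources used here give no other version. The authors deposited estimated counts per miRBase stem-loop, not normalized and partly fractional, and FPKM values. Only the whole-number hairpin length implied by the FPKM values of the deposited table was used, and it was recovered within 0.01 for all 46824 values with a count of at least 5.

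Estimated counts were rounded, filtered with filterByExpr, scaled by TMM and fitted with edgeR 4.0.16 (glmQLFit with its robust option, glmQLFTest) in R 4.3.3, with genotype, sex and L field as terms. Benjamini-Hochberg adjustment was over all stem-loops tested, at an FDR of 0.05. Single stem-loops were checked with exact permutation tests of log2(CPM + 1). DESeq2 1.42.0, limma 3.58.1 and other settings were alternatives. Scripts were tested on simulated data. Libraries of a group differed by more than sampling noise, so none was treated as a repeat deposit of another.

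The comparison and the lists were chosen with earlier results of these data known. The microRNA lists, fixed by name, could not be applied to accessions. The rule for named stem-loops (up to 12 in each direction) was reduced, after values were seen, to 2 in each direction: the smallest FDR, then the smallest among changes of 2-fold or more, or the next FDR where there was none. Classes of level, the set of 8 and the stem-loops described without accession were also chosen after values were seen.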

Additional observations from a re-analysis of the deposited data

Results flagged for a closer look

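One library stood apart from its group in the stem-loop with the largest rise. WT female F2 had 11.2 CPM, whereas the other 7 WT libraries had 4.83 to 7.21 CPM. It was the only such value among the 14 groups of 8 libraries checked, of which chance would single out about 1 in 20.

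The genotype change differed between ages by the interaction test for 39 stem-loops. The log2 change at 10 months minus that at 6 months was 0.51 for MI0005495, 2.06 for MI0000229, -0.35 for MI0016971 and -0.29 for MI0006127. For the other 3 stem-loops that rose by 2-fold or more it was 3.05, 2.19 and 1.65, in the order of their rise at 10 months. All of these were chosen by their change at 10 months, which is part of the difference. The genotype change differed between sexes by the interaction test for 2 stem-loops, with a male minus female log2 change of 2.36 for the one with the largest rise and of 0.78 for the other.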

How the results depend on the processing

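The 31 calls at 10 months became 28 to 36 with DESeq2 size factors, either other filter on low counts, limma-voom, no robust option or no sex term, and 24 in males only. With no filter on low counts the 28 were 24 rises and 4 falls, and 24 of them were among the 31. The other settings in the range of 28 to 36 gave 20 to 23 rises and 10 to 13 falls. DESeq2 gave 58 calls, 64 with outlying values replaced, the fit without L field 48, and 1 fit of all 10-month libraries 67, while L2 libraries gave 0 with or without the sex term, females 0 and the summed level of the co-varying set as a covariate 1. This covariate was chosen after seeing the data, in place of microRNA clusters planned by name that could not be matched to accessions. No alternative reversed a stem-loop given by accession. Leaving out 1 library gave 10 to 56 calls, 26 to 55 for genotype by age, 0 to 5 for genotype by sex, and 0 at 6 months. Without WT male M4 the adjusted p of MI0016971 and MI0006127 was 0.0690 (edgeR).

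Replicate numbers showed no visible pairing of the libraries: deviations of same-numbered libraries correlated at -0.18 to 0.05, and 0 of 8 correlated best with their own number. This does not show whether animals of the 2 groups shared litters. With the replicate block and the L field term there were 0 calls (smallest adjusted p 0.0665 from edgeR, 84 at an unadjusted p under 0.05). All 31 had the same sign in this fit, which used the libraries that chose them. The same block gave 1 call for genotype by age. The replicate block with no L field term, added after seeing the data, gave 18 calls at 10 months. At 6 months the block left the count at 0.

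Genotype by age gave 24 calls without a filter. Genotype by sex gave 0 without a filter, 9 with DESeq2 and 1 without L field. The cause of these differences was not tested. The median difference in mean log2(CPM + 1) of all tested stem-loops was 0.03 by TMM over all 96 libraries and 0.05 by the raw total. Under both, the 21 and 10 called stem-loops kept their signs. The fit, with covariates and TMM over its own libraries, had a median change of -0.0011. By the TMM levels MI0016971 differed by -0.21 and MI0006127 by -0.25, against -0.25 and -0.28 in the fit. No alternative for the connectivity limit applied at 10 months, since it removed none of the 16 libraries.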
